A study of Homo sapiens with 6 samples.

Results

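The serpins are a family of protease inhibitors, and their genes were followed here in HaCaT (genotype WT), a spontaneously immortalised human keratinocyte line, after exposure to interferon beta. The members are the genes of the deposited table whose symbol starts with SERPIN, without symbols that end in P plus digits or hold a hyphen. This rule found 38 of the 60671 genes in the table and left out 4 rows of numbered pseudogenes. Of the 38 members, 4 are described in the table as pseudogenes (SERPINA2, SERPINA13P, SERPINA15P and SERPINE4P), and all 4 were listed at 0 in every library.

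The 6 libraries fall into 2 groups of 3. The IFN-beta libraries came from cells given IFN-beta (160 ng/mL) for 24 h in DMEM-H without serum, and the CTL libraries from cells in that medium alone. The labels do not tell whether the replicates are separate cultures, and the p-values then rest on a spread that may be technical. All libraries come from 1 cell line, grown without the other cells of skin, and their batch is given as unknown.

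A serpin works as a bait. Its exposed reactive centre loop is cut by the target protease, the serpin then snaps into a more stable fold, and the protease stays trapped on it and is inactivated. The letter after SERPIN names the clade, a branch of the family tree. Clade A holds mostly secreted liver proteins, clade B intracellular proteins that are abundant in epidermis and in leukocytes, clade E secreted inhibitors such as protease nexin 1, clade G the C1 inhibitor of complement, and clade H the collagen chaperone HSP47. Some members, such as maspin (SERPINB5) and HSP47 (SERPINH1), keep the fold without inhibiting proteases.

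Values are FPKM, read fragments scaled to gene length and library size, as deposited by the authors. Library totals recovered from the steps of these values ran from 26569656 to 30594527 reads in IFN-beta libraries and from 25832158 to 29998783 reads in CTL libraries. The treatment was visible in 6 of 6 interferon-induced check genes (MX1, MX2, IFI44L, IFI6, OAS2 and RSAD2), with a median log2 change of 7.26. The 10 keratinocyte markers summed to between 3653 and 3722 FPKM in IFN-beta libraries and between 3690 and 3982 FPKM in CTL libraries. The sum hides changes in both directions. In the fit described below, which called 42.4% of all genes tested, 4 of the 10 rose, 3 fell and 3 did not pass. KRT5 fell, with a mean of 965 FPKM in IFN-beta libraries and 1374 FPKM in CTL libraries (log2 change -0.51, limma adjusted p = 6.04e-05). Marker lists of other cell types were low: the 8 fibroblast markers summed to 2.55 to 3.29 FPKM in IFN-beta libraries and 1.77 to 2.47 FPKM in CTL libraries, with DCN at 0. The 8 immune markers summed to 4.47 to 4.79 FPKM in IFN-beta libraries and 3.26 to 4.63 FPKM in CTL libraries, with CD207 and LYZ among those at 0. The 6 melanocyte markers summed to 3.34 to 3.91 FPKM in IFN-beta libraries and 4.14 to 4.69 FPKM in CTL libraries, with MLANA, TYR and TYRP1 at 0. The 5 endothelial markers summed to 2.12 to 2.22 FPKM in IFN-beta libraries and 0.696 to 0.964 FPKM in CTL libraries, with TEK at 0. The 8 liver markers stayed at or under 0.0887 FPKM in sum in every library, with APOA2, FGA, FGB and TTR at 0. Some genes of these other lists averaged at least 0.5 FPKM, given here as means of IFN-beta and then of CTL libraries. They were COL1A1 (2.69 and 1.80), CDH5 (1.97 and 0.731), ITGAM (0.989 and 0.519), CD14 (3.51 and 3.18), PMEL (1.57 and 1.41) and MITF (2.10 and 2.91). In the fit described below, COL1A1, CDH5 and ITGAM rose, MITF fell, and CD14 and PMEL did not pass its threshold. The part of these differing marker levels and sums in the serpin results was not tested. In bulk RNA, fewer cells of a type and less RNA per cell cannot be told apart.

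Serpin transcripts were more abundant with IFN-beta, and the rises were spread over clades B, E, G, H and I. Together the 38 genes took 0.251%, 0.257% and 0.259% of reads in the IFN-beta libraries, against 0.204%, 0.220% and 0.216% in the CTL libraries, so the groups did not overlap. These shares lean on abundant members. SERPINB5 had 30312, 27614 and 32219 reads in the IFN-beta libraries and 23959, 27060 and 24208 reads in the CTL libraries. SERPINB2 had 6029, 5776 and 6990 reads in the IFN-beta libraries and 1644, 1885 and 1834 reads in the CTL libraries. The filter, a mean of at least 0.5 FPKM over the 6 libraries, was passed by 17 of the 38 members, and these were tested as log2(FPKM + 0.5) with limma across all 15163 genes that passed it. Of the 17, 11 rose, 2 fell and 4 did not pass the Benjamini-Hochberg adjusted threshold of 0.05. The background was high: 42.4% of all genes tested were called, 22.5% higher and 19.9% lower. With a minimum mean of 2 FPKM the share called was 50.8%, so it was larger among better expressed genes. The clades and lists below are set beside 42.4%, and that background was not matched to them for level. The median log2 change of the tested members was 0.34, against 0.01 for all genes tested. SERPING1 passed the filter only through the IFN-beta libraries, and without it 12 of 16 members were called, 10 higher and 2 lower, with a median log2 change of 0.32. The groups did not overlap in 14 of the 17 members, 12 higher and 2 lower, against 54% of all genes tested, 28.6% higher and 25.4% lower. Without SERPING1 they did not overlap in 13 of 16, 11 higher and 2 lower.

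**Figure D1:**
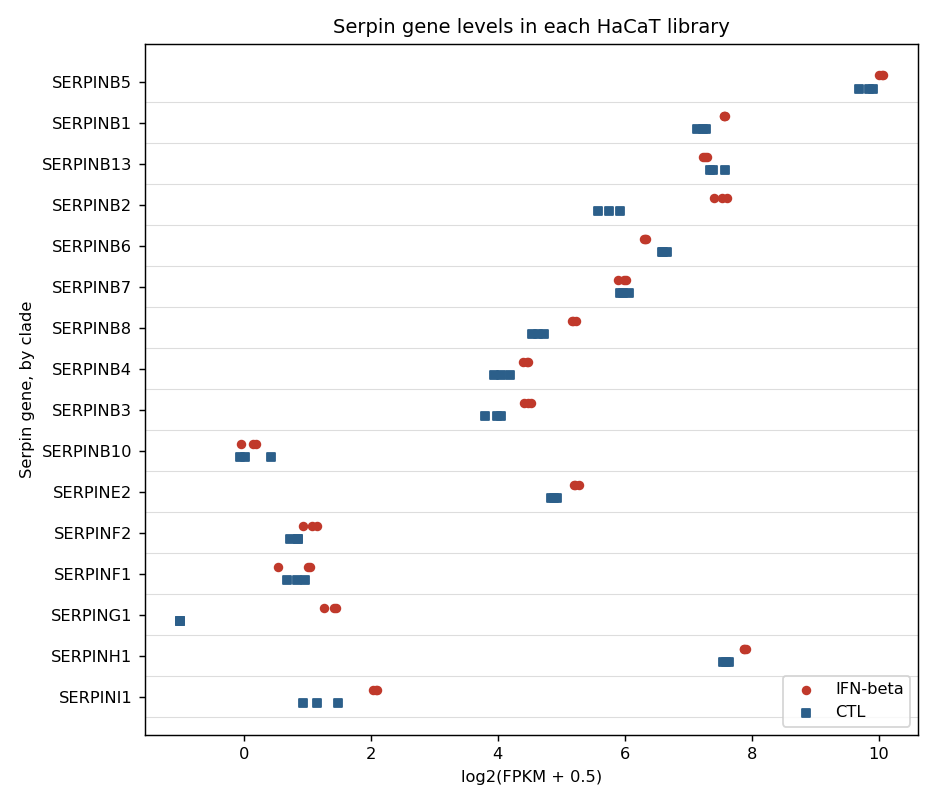
Level of 16 of the 17 tested serpin genes in every library, as log2(FPKM + 0.5), ordered by clade and by mean level, with IFN-beta libraries as circles and CTL libraries as squares (3 each). SERPING1 lies at the floor of the scale in every CTL library because it was listed at 0 there, and SERPINB5 is the highest serpin in all 6 libraries.

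SERPING1 encodes the C1 inhibitor, the serpin that blocks the complement proteases C1r and C1s. Its coordinates in the table are chromosome 11, 57597387 to 57614848. It stood at 1.89, 2.18 and 2.25 FPKM in the IFN-beta libraries and was listed at 0 in all 3 CTL libraries. These levels rest on 68, 69 and 82 reads in the IFN-beta libraries and on 0 reads in each CTL library. With a floor of 3 reads in each CTL library, its mean level was at least 23.7-fold higher with IFN-beta. Its fitted log2 change is set by the pseudocount, with 2.38 at 0.5, 4.46 at 0.1 and 1.64 at 1, and is no measure of the true ratio or of its rank among the serpins. A value of 0 in this table is not proof of absence, since EEF1G, a translation factor that every cell uses, was listed at 0 in all libraries. SERPING1 differs from it in having reads in the IFN-beta libraries.

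Of the proteases that C1 inhibitor blocks, C1r and C1s had genes that rose, from higher levels than SERPING1. C1R stood at 54.0, 56.0 and 57.2 FPKM in the IFN-beta libraries, against 7.68, 8.67 and 7.35 FPKM in the CTL libraries (log2 change 2.75 ± 0.064, limma adjusted p = 3.84e-09). Here and below, ± after a log2 change is the standard error of the limma fit, not an SD between libraries. C1S had 70.0, 79.3 and 74.7 FPKM in IFN-beta libraries and 9.255, 10.3 and 8.97 FPKM in CTL libraries (2.91 ± 0.065, limma adjusted p = 3.01e-09). On the FPKM scale, SERPING1, C1R and C1S were higher in every IFN-beta library than in any CTL library, and the inhibitor gene remained below both protease genes. F12, factor XII and another of its targets, averaged 9.11 FPKM in IFN-beta libraries and 9.88 FPKM in CTL libraries and did not pass (log2 change -0.12, limma adjusted p = 0.264).

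**Figure D2:**
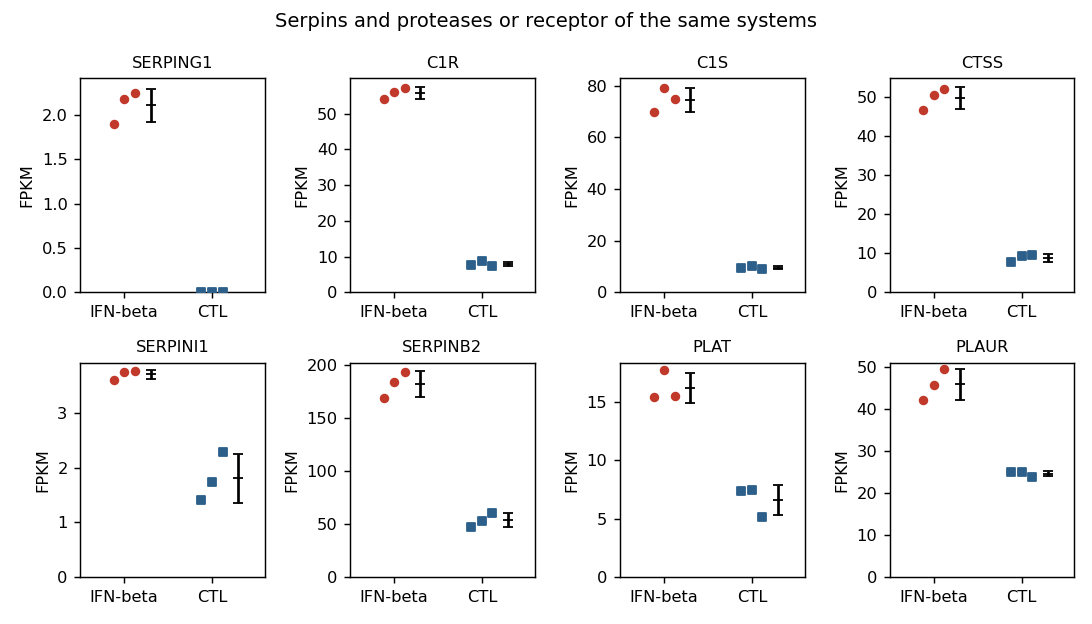
FPKM of 3 serpin genes, with C1R, C1S, PLAT and PLAUR from the systems they act in, and CTSS, a target of SERPINB3. Each gene has 1 panel, with IFN-beta libraries left of CTL libraries. Points are libraries, bars give the mean ± SD (n = 3 each; none where all libraries are at 0) and every axis starts at 0. Only genes called higher are plotted, and in each panel the IFN-beta libraries lie above all CTL libraries.

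Of the serpins that block plasminogen activators, SERPINB2, SERPINE2 and SERPINI1 rose as well. Plasminogen activators cut plasminogen to plasmin, which dissolves fibrin and helps keratinocytes move through a wound. PLG, the plasminogen gene, was itself listed at 0 in every library, and plasmin was not measured. SERPINB2, plasminogen activator inhibitor 2 and a mainly intracellular protein of stratified epithelium, had 169.5, 184 and 194 FPKM in the IFN-beta libraries, against 47.1, 53.3 and 60.2 FPKM in the CTL libraries. Its mean was 3.41-fold higher, and its log2 change of 1.76 ± 0.084 (limma adjusted p = 7.12e-07) ranked as the 153rd largest rise of all genes tested. Only 506 of the 15163 genes tested had an absolute log2 change of 1 or more, which sets the scale for this rise.

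The promoter of SERPINB2 and that of SERPINB8, a second riser of the same cluster, are shown because they hold matches to AP-1 or STAT motifs. Both come from the RefSeq promoter table, build GRCh38.p14, plus strand, from 250 bases before to 50 bases after the transcript start. Capitals mark matches to TGANTCA (an AP-1 site) and TTCNNNGAA (a GAS, the element that STAT dimers bind), searched on both strands.
SERPINB2, chr18:63887455-63887754: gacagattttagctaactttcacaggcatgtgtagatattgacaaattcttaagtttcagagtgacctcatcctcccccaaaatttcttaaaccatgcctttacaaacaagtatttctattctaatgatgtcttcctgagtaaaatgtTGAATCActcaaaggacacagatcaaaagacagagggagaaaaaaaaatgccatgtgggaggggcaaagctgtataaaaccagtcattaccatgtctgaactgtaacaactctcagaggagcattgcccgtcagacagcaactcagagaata
SERPINB8, chr18:63969831-63970130: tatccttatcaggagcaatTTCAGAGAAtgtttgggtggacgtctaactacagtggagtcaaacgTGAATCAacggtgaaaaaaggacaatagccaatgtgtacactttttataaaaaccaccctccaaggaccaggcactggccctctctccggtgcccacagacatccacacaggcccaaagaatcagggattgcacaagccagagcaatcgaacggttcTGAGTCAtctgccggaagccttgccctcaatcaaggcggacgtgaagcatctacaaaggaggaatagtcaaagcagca

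Of the 38 members 27 had an entry in that table, among them 12 of the 17 tested. The AP-1 match was present in 5 of these 12 (SERPINB2, SERPINB5, SERPINB7, SERPINB8 and SERPINB13), counting a gene once if any of its promoters matched, against 9.37% of all 27305 genes in the table counted the same way. The 5 include 3 members that rose, 1 that fell and 1 that did not pass. The GAS match was present in 3 of the 12 (SERPINB1, SERPINB7 and SERPINB8), against 9.38% of all genes. Of these, SERPINB1 and SERPINB8 rose and SERPINB7 did not pass. Among all 27 members with an entry, tested or not, 9 held a GAS match and 8 an AP-1 match. SERPINA5, SERPINA11 and SERPIND1, listed at 0 in every library, were among the 9, so these matches were not limited to expressed serpins. The core of the interferon-stimulated response element, taken as 2 copies of GAAA with 2 bases between them on either strand, was in none of the 12 and in 4.38% of all genes. Its 1 match among the members was in SERPINB12, a gene of 0 to 2 reads per library. The matches are letters in a window, and binding was not measured.

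SERPINE2, or protease nexin 1, an inhibitor of thrombin and urokinase, had 36.2, 38.4 and 36.5 FPKM in IFN-beta libraries and 30.2, 28.9 and 28.1 FPKM in CTL libraries. The groups did not overlap, with a log2 change of 0.34 ± 0.046 (limma adjusted p = 4.46e-04). Neuroserpin (SERPINI1), an inhibitor of tissue plasminogen activator best known from neurons, had 3.62, 3.76 and 3.77 FPKM in IFN-beta libraries and 1.41, 1.73 and 2.29 FPKM in CTL libraries. Its log2 change was 0.89 ± 0.14 (limma adjusted p = 0.0011), and the CTL libraries spread more widely than the IFN-beta libraries.

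The enzymes and the receptor of the same system were also higher. PLAT, tissue plasminogen activator, averaged 16.2 ± 1.29 FPKM in IFN-beta libraries and 6.64 ± 1.29 FPKM in CTL libraries (SD, n = 3 each), a log2 change of 1.24 (limma adjusted p = 9.12e-05). PLAUR, the urokinase receptor, averaged 45.9 ± 3.76 FPKM with IFN-beta and 24.6 ± 0.676 FPKM in CTL (0.88, limma adjusted p = 8.17e-06). PLAU, urokinase itself, changed less, with 172 ± 8.26 FPKM in IFN-beta libraries and 143 ± 6.50 FPKM in CTL libraries (0.27, limma adjusted p = 0.0023). Of the 15 listed receptors and clearance genes of the plasminogen system 12 were tested, and 66.7% of these were called, against 42.4% of all genes tested. In this list 2 rose and 6 fell, with a median log2 change of -0.09. Those that fell include SORL1, a sorting receptor (-0.57), the integrin chain ITGAV (-0.37) and the plasminogen receptor PLGRKT (-0.31). The PLGRKT call ended without IFN-beta replicate 2 (limma adjusted p = 0.0908) and, with CTL replicate 1 or 3 left out, at limma adjusted p = 0.0568 and 0.0803. Counting these, it ended in 5 of 18 alternative settings, with a largest limma adjusted p of 0.0916. Of the 12 genes of this list 5 were called when IFN-beta replicate 2 was left out. S100A10, part of a plasminogen-binding complex, and the integrin chain ITGB5 did not pass, with log2 changes of 0.01 and 0.10 (limma adjusted p = 0.91 and 0.131). ANXA2, the most abundant gene of this list, averaged 2555 FPKM in IFN-beta libraries and 3136 FPKM in CTL libraries and fell (-0.29, limma adjusted p = 0.0023).

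The 13 clade B genes form the largest expressed clade here, with 10 tested, 6 that rose, 2 that fell and 2 that did not pass. That is 80% called, against 42.4% of all genes tested. The clade B genes lie in 2 clusters. The chromosome 18 cluster held 8 tested genes, of which 5 rose and 1 fell, and the chromosome 6 cluster held 2, of which 1 rose and 1 fell.

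SERPINB5, or maspin, an epithelial serpin without known protease inhibition, was the most abundant serpin. It stood at 1025, 1061 and 1075 FPKM in the IFN-beta libraries, against 827, 920.4 and 956 FPKM in the CTL libraries. The groups did not overlap, but the difference was small, with a log2 change of 0.23 ± 0.056 (limma adjusted p = 0.0102). It made up between 49.8% and 50.3% of the summed serpin FPKM in IFN-beta libraries and between 50.4% and 53.9% in CTL libraries, and it ranked as the 87th most abundant gene of the whole table by mean FPKM. Without the filter on low values its call ended (limma adjusted p = 0.0516), and after quantile normalization its change was 0.38.

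SERPINB1, an inhibitor of the neutrophil proteases elastase, cathepsin G and proteinase 3, had 189, 189 and 191 FPKM in IFN-beta libraries, against 141, 155 and 150.04 FPKM in CTL libraries. The 3 IFN-beta libraries were nearly level and all above the CTL libraries (log2 change 0.35 ± 0.042, limma adjusted p = 2.34e-04). SERPINB8, an intracellular inhibitor of furin, had 37.2, 36.0 and 35.5 FPKM in IFN-beta libraries and 22.8, 24.4 and 26.0 FPKM in CTL libraries. Its log2 change was 0.56 ± 0.054 (limma adjusted p = 6.43e-05), and its target FURIN rose by a like amount, with 0.56 (limma adjusted p = 2.29e-05). Of the exonic bases of SERPINB8 6.31% are shared with HMSD on the same strand.

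SERPINB3 and SERPINB4, the squamous cell carcinoma antigens, are neighbouring near-copies that differ in target. SERPINB3 blocks cysteine cathepsins such as L, K and S, and SERPINB4 blocks cathepsin G and mast cell chymase. SERPINB3 had 20.9, 22.5 and 21.7 FPKM in IFN-beta libraries, against 15.4, 16.1 and 13.5 FPKM in CTL libraries (log2 change 0.52 ± 0.070, limma adjusted p = 4.49e-04). SERPINB4 had 20.6, 21.6 and 21.8 FPKM in IFN-beta libraries and 16.1, 17.9 and 14.9 FPKM in CTL libraries (0.38 ± 0.068, limma adjusted p = 0.0021). The 95% intervals of the changes, 0.36 to 0.68 for SERPINB3 and 0.23 to 0.54 for SERPINB4, overlap, and the difference between them was not tested. Summed over both genes the level was 41.6, 44.1 and 43.4 FPKM in IFN-beta libraries, against 31.5, 34.0 and 28.3 FPKM in CTL libraries, with no overlap.

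How far the separate levels of this pair can be trusted depends on their transcribed sequences, which are compared after the promoters. Of the promoter bases 250 lie before the transcript start, so promoter likeness does not bear on how reads were split. The 300-base promoters from RefSeq (GRCh38.p14, minus strand) were identical at 296 of 300 positions, and capitals mark the 4 bases that differ.
SERPINB3, chr18:63661844-63662143: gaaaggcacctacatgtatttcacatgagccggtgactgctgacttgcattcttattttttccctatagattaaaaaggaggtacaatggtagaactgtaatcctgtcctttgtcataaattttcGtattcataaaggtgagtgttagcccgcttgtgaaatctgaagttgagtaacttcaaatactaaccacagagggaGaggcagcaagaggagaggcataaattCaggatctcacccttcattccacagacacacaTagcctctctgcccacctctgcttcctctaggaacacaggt
SERPINB4, chr18:63644207-63644506: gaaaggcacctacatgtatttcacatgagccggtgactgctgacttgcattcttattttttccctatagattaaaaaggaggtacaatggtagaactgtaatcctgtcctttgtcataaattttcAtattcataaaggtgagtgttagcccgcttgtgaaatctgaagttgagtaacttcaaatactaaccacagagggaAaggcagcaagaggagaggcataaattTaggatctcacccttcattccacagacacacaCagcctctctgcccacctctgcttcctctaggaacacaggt

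The coding sequences of their longest GENCODE 29 coding transcripts were identical at 1114 of 1170 positions, or 95.2%, with a longest identical run of 129 bases. The most divergent stretch of 60 bases, from base 952 to base 1011 of the coding sequence, held 10 differences, in capitals here.
SERPINB3: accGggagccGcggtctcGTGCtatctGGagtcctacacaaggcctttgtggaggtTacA
SERPINB4: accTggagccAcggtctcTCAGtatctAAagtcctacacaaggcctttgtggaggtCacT
Of all 50-base stretches in the transcripts of SERPINB3, 23.3% also occur in SERPINB4 transcripts, and of those of SERPINB4 20.1% occur in SERPINB3 transcripts. The length of the reads is not given in the sources used here, and reads that lie wholly within a shared stretch could have been given to either gene, so the split between the pair is uncertain. In addition, 34.9% of the exonic bases of SERPINB3 are shared with SERPINB11 on the opposite strand, and whether reads were counted by strand is not stated.

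SERPINB6 and SERPINB13 were the members that fell. SERPINB6, a broadly expressed intracellular inhibitor of cathepsin G, had 79.5, 78.2 and 80.3 FPKM in IFN-beta libraries, against 96.5, 100.5 and 95.1 FPKM in CTL libraries. The groups did not overlap, and its log2 change was -0.29 ± 0.037 (limma adjusted p = 3.07e-04). SERPINB13, or hurpin, a keratinocyte inhibitor of cathepsins L and K, had 153, 157 and 149 FPKM in IFN-beta libraries, against 168, 190.5 and 162 FPKM in CTL libraries, with a log2 change of -0.18 ± 0.059 (limma adjusted p = 0.0388). This call was fragile: leaving out any 1 of the IFN-beta replicates 1 to 3 gave limma adjusted p = 0.093, 0.0639 and 0.115, and leaving out CTL replicate 2 gave a change of -0.11 (limma adjusted p = 0.104). It also ended after rescaling to the same sum (-0.13, limma adjusted p = 0.116), while its direction held in all 18 alternatives.

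SERPINB7 and SERPINB10 did not pass. SERPINB7, or megsin, whose loss causes a palmoplantar keratosis, was well expressed at 64.0, 59.1 and 62.9 FPKM in IFN-beta libraries and 60.5, 62.2 and 66.4 FPKM in CTL libraries. The groups overlapped, and the log2 change was -0.02 with a 95% interval of -0.13 to 0.09 (limma adjusted p = 0.74). It became 0.02 after rescaling to the same sum, 0.01 without IFN-beta replicate 2 and 0.01 without CTL replicate 3. SERPINB10, or bomapin, known from blood cells, had 0.643, 0.609 and 0.476 FPKM in IFN-beta libraries and 0.519, 0.458 and 0.845 FPKM in CTL libraries. Its log2 change was -0.03 with an interval of -0.44 to 0.39 (limma adjusted p = 0.914), which turned to 0.04 without IFN-beta replicate 3 and to 0.12 without CTL replicate 3. Of the exonic bases of SERPINB10 20.3% are shared with SERPINB2 on the same strand, as are 19.9% of those of SERPINB2 with SERPINB10.

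**Figure D3:**
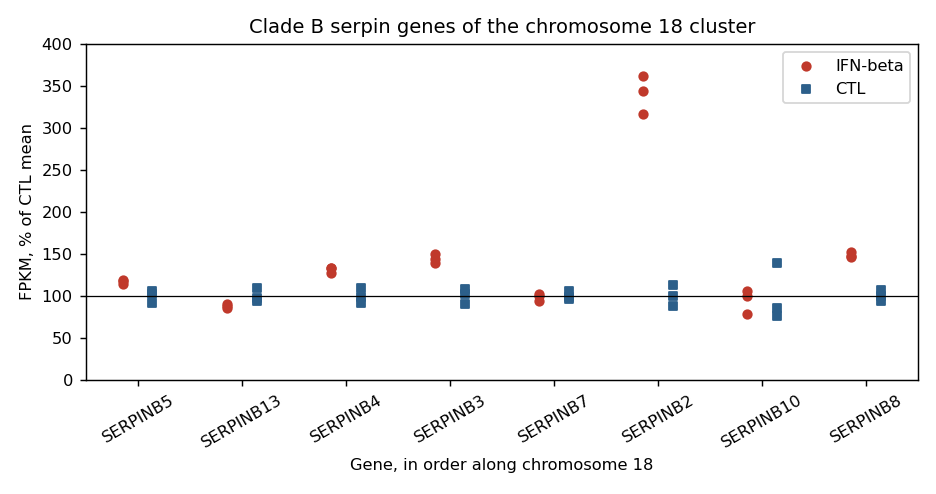
FPKM of the 8 tested clade B genes of chromosome 18 in each library as a percentage of the gene's CTL mean, in order along the chromosome and not to scale, with IFN-beta libraries left of CTL libraries. SERPINB2 lies between 317% and 362% in IFN-beta libraries, SERPINB8 between 146% and 153%, and the neighbours SERPINB7 and SERPINB10 overlap their CTL libraries.

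Neighbours on chromosome 18 thus did not share 1 response. SERPINB7, SERPINB2, SERPINB10 and SERPINB8 follow one another in the order of the table, and their log2 changes were -0.02, 1.76, -0.03 and 0.56. Of the chromosome 6 genes, SERPINB1 rose, SERPINB6 fell, and SERPINB9, the inhibitor of granzyme B, was listed at 0 in all 6 libraries.

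The remaining clades held a collagen chaperone and 2 secreted serpins. SERPINH1, or HSP47, which helps procollagen fold in the endoplasmic reticulum, had 234, 233 and 239 FPKM in IFN-beta libraries, against 198, 193 and 186 FPKM in CTL libraries. The groups did not overlap (log2 change 0.29 ± 0.037, limma adjusted p = 2.93e-04). Of 20 listed collagen-folding partners 16 were tested, 9 rose and 1 fell, with a median log2 change of 0.19. The share called, 62.5%, stands beside 42.4% of all genes tested, and no difference between them was tested. The chaperone HSPA5 led with 0.41, followed by the lysyl hydroxylase PLOD3 (0.38), P3H4 (0.37) and the prolyl hydroxylase subunit P4HA1 (0.33). The isomerase PPIB (0.08, limma adjusted p = 0.118) and the lysyl hydroxylase PLOD1 (0.10, limma adjusted p = 0.0958) did not pass.

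Both clade F genes were near the filter. SERPINF2, the plasmin inhibitor alpha-2-antiplasmin, had 1.403, 1.72 and 1.62 FPKM in IFN-beta libraries and 1.30, 1.30 and 1.15 FPKM in CTL libraries. Its groups did not overlap, yet its log2 change of 0.25 did not pass (limma adjusted p = 0.138, 95% interval -0.03 to 0.52), with 54 to 90 reads per library. It passed in the eBayes fit without a trend (limma adjusted p = 0.0422). SERPINF1, the pigment epithelium-derived factor and no protease inhibitor, had 1.52, 1.57 and 0.952 FPKM in IFN-beta libraries and 1.45, 1.11 and 1.29 FPKM in CTL libraries. Its groups overlapped (log2 change 0.04, 95% interval -0.35 to 0.42, limma adjusted p = 0.885), and the change turned to -0.08 after quantile normalization and to between -0.06 and -0.04 without IFN-beta replicate 1 or 2 or CTL replicate 2.

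**Figure D4:**
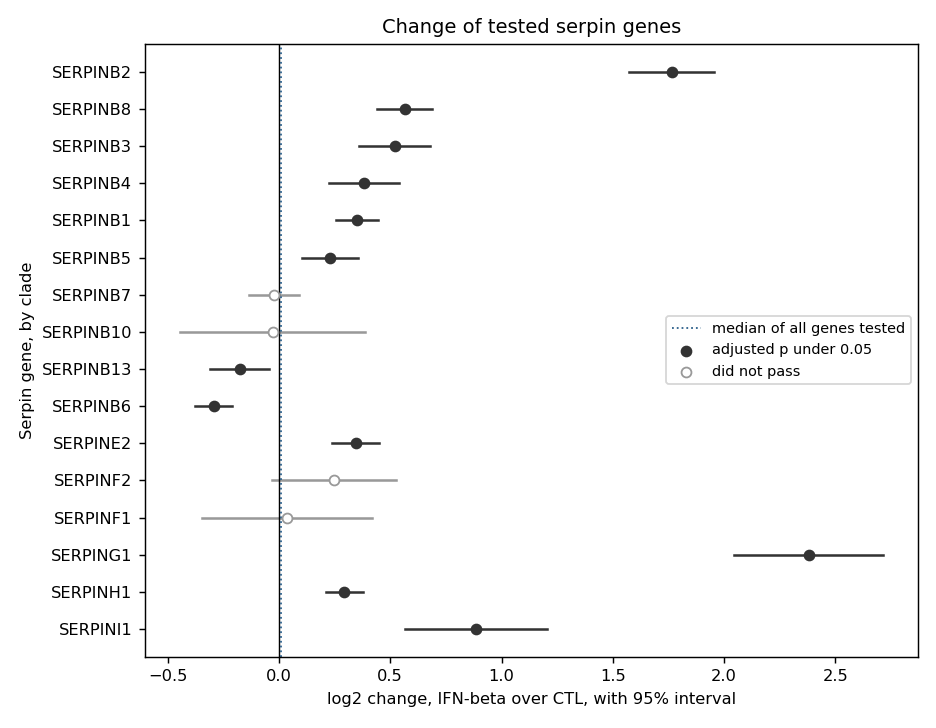
Log2 change, IFN-beta over CTL, on the log2(FPKM + 0.5) scale for 16 of the 17 tested serpin genes by clade, with 95% intervals of the limma fit as lines. Filled points passed an adjusted p of 0.05, open points did not, and the dotted line is the median of all 15163 genes tested. The changes run from -0.29 (SERPINB6) to 2.38 (SERPING1, whose value is set by the pseudocount).

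The other 21 members stayed under the filter, 12 of them listed at 0 in every library. None of the 13 clade A members passed the filter, and 9 of them were listed at 0. The liver serpins SERPINC1 (antithrombin) and SERPIND1 (heparin cofactor II) had 0 to 3 reads and no reads per library. SERPINA1, or alpha-1-antitrypsin, was the highest of those under the filter, with 0.423, 0.888 and 0.5003 FPKM in IFN-beta libraries and 0.172, 0.404 and 0.420 FPKM in CTL libraries, a difference with no overlap that rests on 8 to 37 reads per library. SERPINB11 followed with 0.510, 0.322 and 0.670 FPKM in IFN-beta libraries and 0.376, 0.399 and 0.0662 FPKM in CTL libraries, where the groups overlap. SERPINA3, SERPINA6, SERPINA10, SERPINB12, SERPINE3 and SERPINI2 had at most 5 reads in any library, and differences between groups were not detectable at this depth.

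By level, the tested members spanned from SERPINB10 near the filter to SERPINB5. In IFN-beta libraries SERPINB5 (1054 ± 25.3 FPKM) was followed by SERPINH1 (236 ± 3.22), SERPINB1 (189.7 ± 1.51), SERPINB2 (183 ± 12.2) and SERPINB13 (153 ± 4.06, all SD, n = 3). In CTL libraries SERPINB5 (901 ± 67.0 FPKM) was followed by SERPINH1 (192 ± 6.201), SERPINB13 (173 ± 15.1), SERPINB1 (149 ± 7.46), SERPINB6 (97.3 ± 2.795), SERPINB7 (63.0 ± 3.02) and SERPINB2 (53.6 ± 6.54). SERPINB2 thus held the fourth place in IFN-beta libraries, against the seventh in CTL libraries. Some neighbours in this order overlap in their libraries, SERPINB1 with SERPINB2 in the IFN-beta group and SERPINH1 with SERPINB13 in the CTL group. The length that the FPKM steps imply is short for some genes, 980 bases for SERPINB5 where its longest GENCODE 29 transcript has 2783, so levels between genes depend on it. Scaled by the longest transcript, SERPINB5 stood at 371 and SERPINB2 at 99.9 in IFN-beta libraries, and at 317 and 29.3 in CTL libraries, in the same unit, and SERPINB5 kept the first place. On that scale SERPINB2 was the second in IFN-beta libraries, above SERPINH1 (95.3) and SERPINB13 (90.2), so its place depends on the length used.

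The proteases that serpins act on, and other inhibitor families, moved in both directions. Of 38 listed target proteases 23 were tested, with 9 that rose, 5 that fell and 9 that did not pass, and a median log2 change of 0.05. That is 60.9% called, against 42.4% of all genes tested. Beside C1S, C1R and PLAT the largest change was in CTSS, cathepsin S, a target of SERPINB3, with 49.6 ± 2.80 FPKM in IFN-beta libraries and 8.82 ± 1.00 FPKM in CTL libraries (log2 change 2.43, limma adjusted p = 5.34e-08). CTSL, cathepsin L, rose by less, with 0.40 (limma adjusted p = 2.26e-04). The genes that fell include those of the epidermal serine proteases KLK5 (-0.64, limma adjusted p = 2.27e-05) and KLK8 (-0.50, limma adjusted p = 9.97e-05). The abundant cathepsin gene CTSB, at 419 ± 5.603 FPKM in IFN-beta libraries and 430.2 ± 14.1 FPKM in CTL libraries, and the membrane protease gene TMPRSS4 did not pass, with log2 changes of -0.04 and 0.03 (limma adjusted p = 0.43 and 0.705). Rescaling to the same sum made that of CTSB 0.01, and quantile normalization made that of TMPRSS4 -0.02.

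Among 30 listed genes of other inhibitor families 16 were tested, 8 rose, 5 fell and 3 did not pass, with a median log2 change of 0.19. That is 81.2% called, against 42.4% of all genes tested. PI3, the elastase inhibitor elafin, averaged 12.7 ± 0.366 FPKM in IFN-beta libraries and 5.24 ± 0.955 FPKM in CTL libraries (1.21, limma adjusted p = 5.11e-05). The Kunitz inhibitor TFPI2 (0.68) and cystatin C, CST3 (0.61), rose, and the intracellular cystatin CSTB (-0.64) fell. CSTB had 52.7, 35.7 and 51.5 FPKM in IFN-beta libraries and 70.4, 69.5 and 76.1 FPKM in CTL libraries. Its change ran from -0.74 to -0.46 with a library left out. SPINT2 and TIMP3 did not pass, with log2 changes of -0.09 and -0.11 (limma adjusted p = 0.153 and 0.423).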

How the data were processed

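RNA was sequenced from 3 IFN-beta and 3 CTL libraries of HaCaT cells, with groups and replicate numbers taken from the sample titles. The authors deposited 1 table of FPKM values for 60671 genes. Per the labels' protocols, CLC Genomics Workbench 11.0.1 was used, with no step named. No source used here names an aligner, a counter or a strand setting. The submitters' processing notes list GRCm38 and mm10, both mouse, but 60671 of 60671 identifiers are human. Of the 58453 found in GENCODE 29 (GRCh38), 76.9% had the same coordinates there, so the table's coordinates are printed with the build inferred.

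Whole reads were recovered from the FPKM steps as the smallest gene length that gave whole reads in all libraries within 0.01 reads, for 100% of the 30507 genes above 0, summing to at least 99.7% of each library's total. Where reads are few the true number may be a multiple. A floor of 3 reads covers counting error only.

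log2(FPKM + 0.5) was fitted with limma 3.58.1 in R 4.3.3 (eBayes with a trend, two-sided) on genes with a mean of at least 0.5 FPKM, and p-values were adjusted over all of them. The pseudocount understates changes of low genes. The fit was run on simulated data with few changed genes and the same spread setting for every gene. In the real data 42.4% of all genes tested were called, so the simulation does not give the error rate here. Exons and transcripts came from GENCODE 29, promoters from RefSeq, alignments from Biopython 1.88. Members and lists were chosen with earlier results of these data known. One tested serpin is in the counts but not reported here. Values are printed for the other called members, for SERPING1, SERPINB2 and SERPINB5 and for uncalled tested members, and per list for up to 4 called genes by size of change and up to 2 uncalled genes by level. PLAU, FURIN, CTSL, F12, KLK5, KLK8, ANXA2, EEF1G, KRT5, PLG, SERPINA1, SERPINB11 and SERPINB9P1 were chosen after their values were seen.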

Additional observations from a re-analysis of the deposited data

How the results depend on the processing

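Results were recomputed with pseudocounts of 0.1 and 1, without the filter, with a minimum of 2 FPKM, rescaling to the same sum, also without mitochondrially encoded genes, quantile normalization, size factors, eBayes without trend or robust, the replicate block, single libraries left out and limma voom on recovered reads. The count of serpin genes called higher stayed between 10 and 12, where 11 were reported. That of genes called lower, 2, became 1 without the filter, after either rescaling and without a trend, and ran from 1 to 2 with single libraries left out, in each case through SERPINB13. The plasminogen receptor list went from 8 calls to 5 without a trend and to between 5 and 7 with a library left out. Reversed signs occurred in changes that did not pass: SERPINB7 was 0.0231 after rescaling and -0.0511 to 0.0150 with a library left out, SERPINB10 -0.126 to 0.119 and SERPINF1 -0.0553 to 0.199 with a library left out, and SERPINF1 -0.0799 after quantile normalization. CTSB was 0.00667 after rescaling, TMPRSS4 -0.0165 after quantile normalization and -0.0261 to 0.0820 with a library left out, and S100A10 -0.00830 with size factors and -0.0128 to 0.0224 with a library left out. The causes were not tested. S100A10 and SPINT2 passed after quantile normalization, PPIB there, after rescaling and without CTL replicate 3, ITGB5 after rescaling, and PLOD1 after rescaling and without CTL replicate 1. The log2 change of SERPING1 ran from 1.64 (pseudocount 1) to 7.16 (voom), as its CTL value is set by the prior alone.

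Replicate numbers did not pair the libraries: same-numbered IFN-beta and CTL libraries had correlated deviations of -0.05, -0.10 and -0.06. With the replicate block 11 serpin genes were called higher and 2 lower, as without it, and 5817 of all genes were called, against 6431. No serpin call changed.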

Other observations

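Some other genes share an annotation with the serpins. The table gives the term serine-type endopeptidase inhibitor activity to 35 of the serpin members and to 62 other genes, such as Kunitz and Kazal type inhibitors. Of the other genes 21 were tested, of which 7 rose, 4 fell and 10 did not pass, with a median log2 change of 0.10. The share called, 52.4%, is near the 42.4% of all genes tested, and no difference from the serpins was tested. The term cornified envelope, the hardened shell of the outermost keratinocytes, is carried by SERPINB2, SERPINB5 and SERPINB12. Of 56 other genes with it 35 were tested, 6 rose, 12 fell and 17 did not pass, with a median log2 change of -0.02. That is 51.4% called, against 42.4% of all genes tested (22.5% higher and 19.9% lower). Falls outnumbered rises among these genes, unlike among all genes tested, and this difference was not tested. The terms were looked up after the serpin results were seen.

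SERPINB9P1, a pseudogene row that the rule leaves out, had 7, 9 and 6 reads in the IFN-beta libraries and 0, 0 and 1 reads in the CTL libraries, while SERPINB9 itself was listed at 0 throughout. The row was singled out after its values were seen, and its level is below the filter.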
